A study of Mus musculus with 6 samples.

Results

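WNT ligands, their receptors and their antagonists were followed in bulk RNA-seq of mouse astrocytes, the star-shaped support cells of the brain. The set holds 56 protein-coding genes out of 35127 genes in the tables: 15 named co-receptors, inhibitors and transducers, with the rest chosen by symbols of the WNT, Frizzled, Dickkopf, secreted Frizzled-related and R-spondin families. No measured value entered the rule, but the set was chosen with earlier results of these data known. Of the 56, 46 had enough reads to be tested between groups and 10 did not. The 3 tumour-associated libraries are astrocytes taken from brain allografts of SCLC, small cell lung cancer with neuroendocrine traits, and the 3 sham libraries are astrocytes isolated from brains given a sham injection. An allograft is mouse tumour tissue in a mouse, so RNA of tumour cells that came along would be counted on the same genes. The sources used here do not give the strain, genotype, age or sex of the animals, the tumour line, the time after injection, how the astrocytes were purified or the number of animals behind a library. Nothing in the labels says that the 3 libraries of a group came from separate animals or cultures, so the p-values measure the spread between these samples, which may be technical.

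WNT proteins are secreted, lipid-modified signals that bind Frizzled receptors together with the co-receptors LRP5 or LRP6. In the canonical branch this stops the breakdown of β-catenin, which enters the nucleus and acts with TCF/LEF transcription factors. Other branches run through Frizzled with the receptor kinases ROR1, ROR2 or RYK and act on cell polarity, movement and calcium. R-spondins keep Frizzled receptors at the cell surface by removing the ligases RNF43 and ZNRF3, whereas SFRP, WIF1, Dickkopf and NOTUM proteins hold the signal down outside the cell. In the brain, WNT signals take part in vessel barrier formation, in the patterning of neural precursors and in the response of glia to injury.

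The libraries held 24511969 to 25787277 rounded counts in the tumour group and 22124088 to 23319003 in the sham group. The 3 tumour libraries were close to each other, with a root mean square log2 difference over tested genes of 0.322 to 0.352, and so were sham libraries 1 and 2 at 0.351. Sham library 3 differed from sham libraries 1 and 2 by 0.802 and 0.795, which was more than the 0.734 to 0.749 between any tumour and any sham library. Its mitochondrial share of reads was 4.20%, against 6.66% and 6.20% in sham libraries 1 and 2, and the tumour libraries had 4.05% to 4.23%. Results that rest on sham library 3 are therefore given with and without it, and a call lost without any single library is named.

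The 10 markers of astrocytes were all well detected, with summed levels of 5531, 5590 and 5488 CPM (counts scaled to a common library size) in the tumour libraries, against 7260, 7273 and 4341 CPM in sham libraries 1 to 3; Aldh1l1 rose and Gja1 fell. Markers of fibroblasts and meningeal cells were high too, summing to 4599, 4654 and 4623 CPM in the tumour libraries, against 5001, 5014 and 7568 CPM in the sham libraries, and 1 of the 10 rose and 4 fell. Pericyte and smooth muscle markers summed to 514 to 522 CPM in the tumour libraries, against 296, 299 and 596 CPM in the sham libraries, with Rgs5, Kcnj8 and Abcc9 under 1 CPM in every library. The endothelial markers Cldn5 and Pecam1 and 6 of 9 microglial markers were under 1 CPM in every library. Of the SCLC markers, Neurod1, Chga, Epcam and Dll3 were under 1 CPM in every library, and Epcam, an epithelial surface protein, had 0.331, 0.329 and 0.237 CPM in the tumour libraries and 0 in the 3 sham libraries. The whole SCLC list of 11 markers summed to 133 to 137 CPM in the tumour libraries, against 115 to 165 CPM in the sham libraries, with 0 of 7 tested markers called. Epithelial markers summed to 23.8 to 25.1 CPM in the tumour libraries, against 5.08 to 5.45 CPM in the sham libraries, and Krt19 rose. Most of the tumour sum was Krt19, at 20.9 to 21.3 CPM, against 1.14, 1.33 and 4.22 CPM in the sham libraries. Cdh1 was not called (log2 fold change -0.22), and the other 5 epithelial markers were under 1 CPM in every library. Endothelial markers summed to 698 to 707 CPM in the tumour libraries, against 608 to 733 CPM in the sham libraries, and Kdr fell. Most of that sum was Cdh5, at 575, 573 and 577 CPM in the tumour libraries, against 588, 595 and 497 CPM in the sham libraries. Microglial and macrophage markers summed to 131 to 135 CPM in the tumour libraries, against 89.8 to 122 CPM in the sham libraries, and Cd68 rose. Neuronal markers summed to 165 to 167 CPM in the tumour libraries, against 147 to 216 CPM in the sham libraries, with Gad1 higher and Tubb3 lower. Markers of oligodendrocytes summed to 126 to 133 CPM in the tumour libraries, against 120 to 133 CPM in the sham libraries, with 0 called, and those of their precursors to 351 to 357 CPM in the tumour libraries, against 282 to 439 CPM in the sham libraries, with Pdgfra higher. Sums of ependymal and choroid plexus markers were 126, 125 and 120 CPM in the tumour libraries, against 186, 191 and 91.6 CPM in the sham libraries. A single gene made up most of the microglial (Tmem119), SCLC (Ncam1), oligodendrocyte (Cnp) and ependymal (Foxj1) sums in every library. Such sums say little about the other markers of their lists. In bulk samples, fewer cells of a type and less RNA per cell cannot be told apart, and the part of any of these cell types in the WNT results was not tested.

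Between the groups, 7 of the 46 tested WNT genes passed edgeR's quasi-likelihood test at a Benjamini-Hochberg adjusted p below 0.05, which is 15.2%, against 20.9% of all 14359 tested genes. The ligand gene Wnt10a and the receptor gene Fzd1 rose, and the receptor genes Fzd2, Fzd5, Fzd9 and Ror1 and the antagonist gene Sfrp1 fell. Over all tested genes, 10.5% were called higher and 10.4% lower in the tumour group. The order of these shares depended on the setting: it was 35.6% of the WNT genes against 27.3% of all genes with DESeq2, 13.5% against 12.9% with no filter on low counts, and 78.3% against 57.7% with edgeR without sham library 3. The values of the tumour and sham libraries did not overlap for 21 of the 46 genes (45.7%), 9 above and 12 below, against 44.1% of all tested genes, of which 22.2% were above and 21.9% below. Rspo1, which passed the read filter through its sham libraries, is among the 12 below and among the negative fold changes that follow. The log2 fold change was negative for 33 of the 46 genes (71.7%), against 51.8% of all tested genes, and the median was -0.22, against -0.02. This share rests in part on sham library 3. Without it, the sign turned positive for Ctnnb1, Dkk3, Wnt5a and Wif1 and negative for Wnt11.

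**Figure D1:**
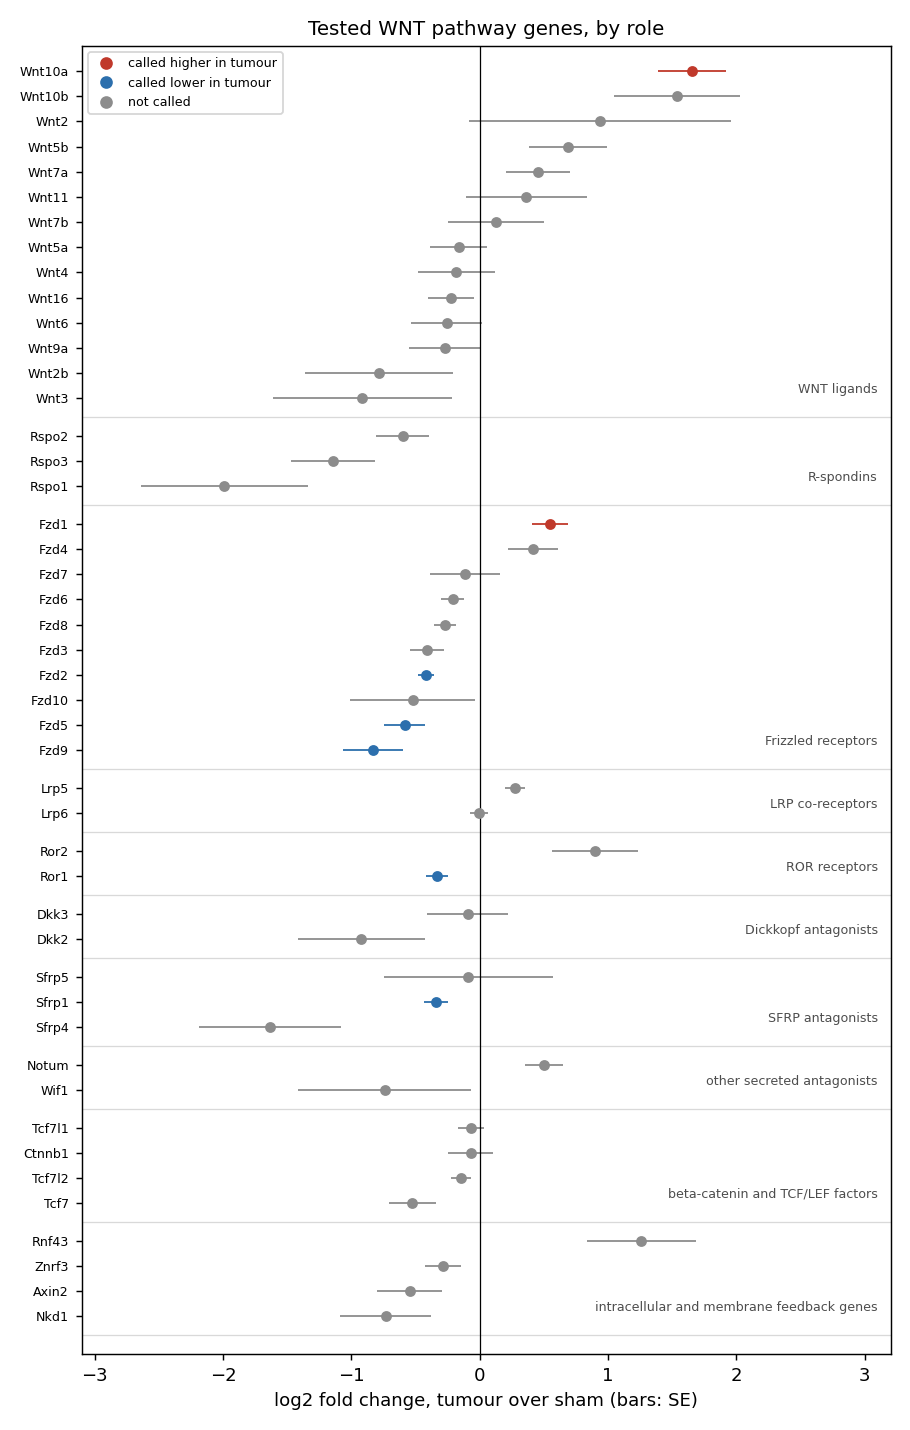
Log2 fold change of tumour over sham libraries for the 46 tested WNT genes, grouped by role, with bars for the standard error (n = 3 libraries each). Red points are called higher (Fzd1, Wnt10a), blue points are called lower (Fzd2, Fzd5, Fzd9, Ror1, Sfrp1) and grey points did not pass edgeR's test at an adjusted p below 0.05.

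On the TPM scale, which divides by transcript length and so allows genes to be compared, the level of the set lay in a few members. Averaged over the 6 libraries, Ctnnb1, the gene for β-catenin, came first at 519 TPM, followed by the Dickkopf-family gene Dkk3 at 166 TPM and the ligand gene Wnt5a at 89.7 TPM. The receptor genes Fzd7, Fzd1 and Fzd2 followed at 64.3, 50.6 and 49.8 TPM, then Lrp6 at 31.2 TPM, Notum at 30.045 TPM and Lrp5 at 25.1 TPM. Neighbours in this order often did not differ beyond their spread: Fzd7 had 62.5 ± 1.83 TPM in the tumour libraries and 66.1 ± 23.5 TPM in the sham libraries, and Fzd1 had 60.5 ± 1.89 TPM in the tumour libraries and 40.7 ± 8.32 TPM in the sham libraries (SD, n = 3 each). The whole set took 0.271% to 0.274% of the counts of the tumour libraries, against 0.277%, 0.281% and 0.339% of the counts of sham libraries 1 to 3.

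**Figure D2:**
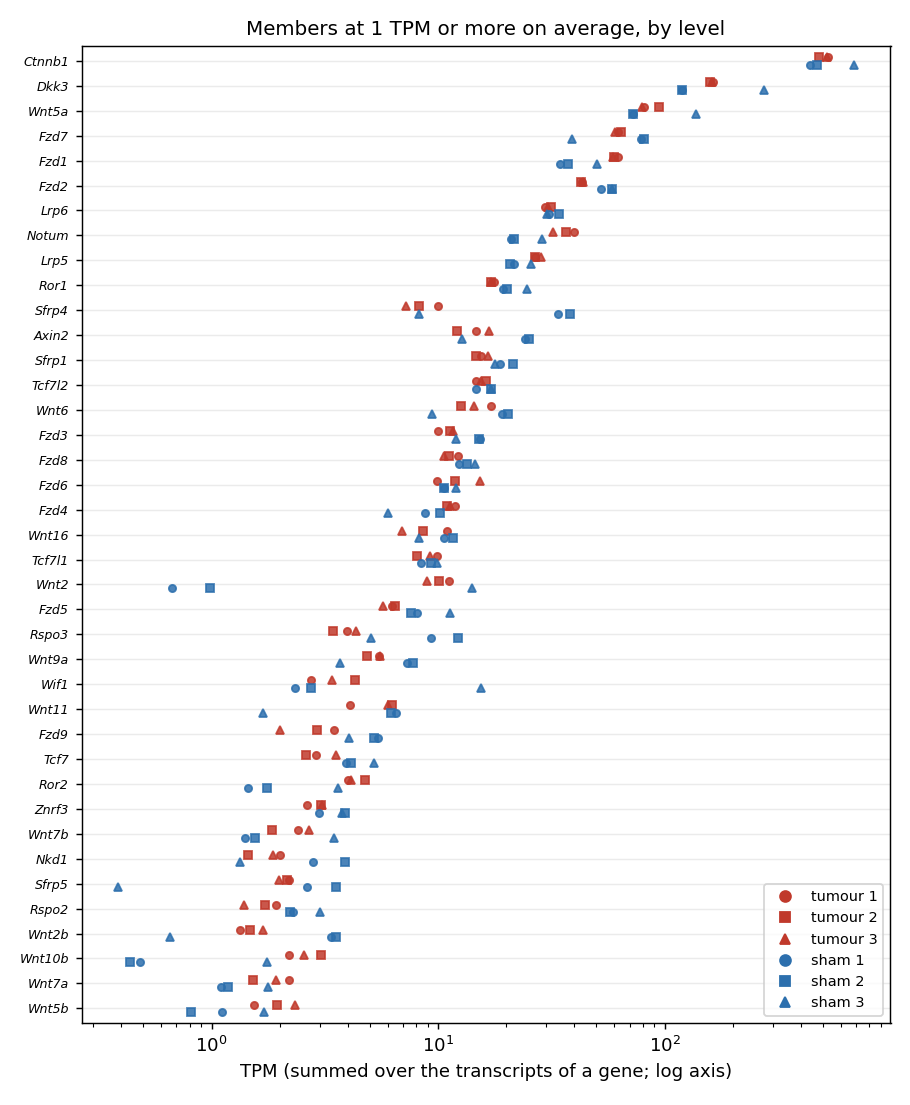
Level in TPM (log axis) of the 39 WNT genes with a mean of at least 1 TPM, in order of their mean over the 6 libraries, with each library as a point. Ctnnb1, Dkk3 and Wnt5a lead the order, and the sham points spread more widely than the tumour points for genes such as Dkk3 and Fzd7.

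Of the 19 WNT ligand genes, 14 were tested, and Wnt10a was the only one called (7.14%, against 20.9% of all tested genes). Wnt10a, a ligand of the canonical branch, lies on chromosome 1 from 74791516 to 74804179 (GRCm38, GENCODE M21). It had 2.44, 2.59 and 2.57 CPM in the tumour libraries, from 59 to 65 estimated reads each, and 0.968, 0.623 and 0.817 CPM in the sham libraries, from 15 to 22 reads each. All 3 tumour values lay above all 3 sham values. The log2 fold change was 1.65 (SE 0.26 and edgeR adjusted p = 0.00881). It was 1.67 without sham library 3, and the call was lost without tumour library 2 (adjusted p = 0.0523) and without tumour library 3 (adjusted p = 0.0517). Its near relative Wnt10b had 3.52, 4.44 and 4.11 CPM in the tumour libraries, against 0.836, 0.748 and 2.59 CPM in the sham libraries. These groups did not overlap either, but the log2 fold change of 1.54 (SE 0.49) did not pass the test with sham library 3 (edgeR adjusted p = 0.0710) and was 2.34 without it (adjusted p = 1.4e-08).

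Wnt5a, a ligand known mainly for the branches that do not need β-catenin, made up most of the ligand level, with 62.3% of the summed ligand TPM. It had 250, 253 and 243 CPM in the tumour libraries, against 230, 218 and 389 CPM in the sham libraries. Sham library 3 was the highest of the 6, and the tumour libraries lay between it and the other 2. The log2 fold change was -0.16 (SE 0.22 and edgeR adjusted p = 0.644) and turned to 0.15 without sham library 3 (adjusted p = 0.000187). Salmon divided the gene's level about evenly between transcripts Wnt5a-201 and Wnt5a-202, the first with 38.3% to 47.7% of the gene's TPM in the tumour libraries and 41.3% to 44.9% in the sham libraries.

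Wnt2, a canonical ligand, split the sham libraries. It had 16.0, 14.8 and 13.0 CPM in the tumour libraries, against 1.01 and 1.45 CPM in sham libraries 1 and 2 and 20.5 CPM in sham library 3. The tumour libraries were thus far above the first 2 sham libraries and below the last. The log2 fold change of 0.94 (SE 1.02 and edgeR adjusted p = 0.558) became 3.55 without sham library 3 (adjusted p = 2.32e-18). Its relative Wnt2b ran the other way, with 2.98, 3.41 and 3.87 CPM in the tumour libraries, against 8.05 and 8.15 CPM in sham libraries 1 and 2 and 1.497 CPM in sham library 3. Its log2 fold change was -0.79 with all libraries (adjusted p = 0.374) and -1.24 without sham library 3 (adjusted p = 1.05e-07).

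The remaining ligand genes above 5 CPM were all uncalled. Wnt6 had 21.9, 19.2 and 22.2 CPM in the tumour libraries, against 30.3, 30.8 and 14.5 CPM in the sham libraries. Wnt9a had 12.4, 11.2 and 12.7 CPM in the tumour libraries, against 17.5, 17.8 and 8.48 CPM in the sham libraries. Both were lower than sham libraries 1 and 2 and higher than sham library 3, with log2 fold changes of -0.26 and -0.27 that did not pass edgeR's test (adjusted p = 0.552 and 0.530). Both became -0.54 without sham library 3 (adjusted p = 8.58e-07 and 2.5e-05). Wnt16 had 11.3, 9.45 and 7.90 CPM in the tumour libraries, against 11.8, 12.4 and 9.26 CPM in the sham libraries. Wnt7b, a ligand known for its part in brain vessel formation, had 5.59, 4.40 and 6.36 CPM in the tumour libraries, against 3.30, 3.62 and 8.08 CPM in the sham libraries. These groups overlapped, and edgeR's adjusted p was 0.420 for Wnt16 and 0.841 for Wnt7b. Without sham library 3, log2 fold changes were -0.35 for Wnt16 (adjusted p = 0.0243) and 0.65 for Wnt7b (adjusted p = 0.00467). Wnt3, Wnt4, Wnt5b, Wnt7a and Wnt11 were tested at under 5 CPM on average, with log2 fold changes between -0.91 for Wnt3 and 0.68 for Wnt5b, none of them called with all libraries. Wnt3 rested on 3, 6 and 19 reads in the tumour libraries, against 9, 18 and 22 reads in the sham libraries, and was at -1.91 without tumour library 3 (adjusted p = 0.151). Without sham library 3, Wnt5b was at 0.92 (adjusted p = 0.00426) and Wnt7a at 0.68 (adjusted p = 0.00967). Wnt11 shares 364 exon bases with Gm8398 on the opposite strand, and the sources used here do not say whether counting used the strand, so its value is uncertain. Wnt1 and Wnt3a had 0 reads in every library, and Wnt8a, Wnt8b and Wnt9b had at most 5. A count of 0 allows a level of up to 3 reads, which is 0.118 to 0.136 CPM in these libraries (counting error only).

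In Rspo2 and Rspo3 the tumour values lay below every sham value, as they did in 21.9% of all tested genes. Of the 3 tested R-spondin genes, 0 passed the test, against 20.9% of all tested genes. Rspo3, which makes up 70.7% of the summed R-spondin TPM, had 7.45, 6.58 and 8.22 CPM in the tumour libraries, against 17.6, 22.6 and 8.94 CPM in the sham libraries. Its log2 fold change was -1.15 (SE 0.33 and edgeR adjusted p = 0.0522), and -1.44 without sham library 3 (adjusted p = 2.3e-12). Rspo2 averaged under 5 CPM, with 3.60, 3.25 and 2.61 CPM in the tumour libraries and 4.49, 4.28 and 5.58 CPM in the sham libraries (a log2 change of -0.60, adjusted p = 0.0855). Rspo1 had lower tumour values too, but it passed the read filter through its sham libraries and is not counted with these. Rspo1 rested on 5, 2 and 15 reads in the tumour libraries, against 18, 32 and 32 reads in the sham libraries (log2 fold change -1.99, adjusted p = 0.0757). It was -3.00 without tumour library 3 (adjusted p = 0.0555) and -1.83 without sham library 3 (adjusted p = 0.00811). Rspo4 had at most 5 reads in any library. The summed R-spondin level was 5.84 ± 0.539 TPM in the tumour libraries and 12.2 ± 3.15 TPM in the sham libraries (SD, n = 3 each).

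All 10 Frizzled receptor genes were tested, and 4 were called, which is 40% against 20.9% of all tested genes, Fzd1 higher and Fzd2, Fzd5 and Fzd9 lower. The tumour values lay below all sham values in 6 of them and above in 2, or 80% against 44.1% of all tested genes. The log2 fold change was negative in 8 of 10, against 51.8% of all tested genes, with a median of -0.34. The summed level of the family was 222 ± 1.31 TPM in the tumour libraries and 225 ± 16.1 TPM in the sham libraries (SD, n = 3 each), so the sum differed by less than the spread of the sham libraries. The upstream sequences of Fzd1 and Fzd5 are shown because these were the called Frizzled genes with a usable window. Fzd2 had no RefSeq window, and the window of Fzd9 lay in its annotated transcript and was left out. Each sequence shown is the 250 bases before the RefSeq gene start on the minus strand (RefSeq, GRCm38.p6), at chr5:4758217-4758466 for Fzd1 and chr1:64737751-64738000 for Fzd5. Capitals mark matches to the letters of the TATA box, TATAAA, and of the GC box, GGGCGG, searched on both strands and at any position. The TATAAA of Fzd1 lies in the part of the window far from the gene start. Whether any match works as a promoter element was not tested.
Fzd1: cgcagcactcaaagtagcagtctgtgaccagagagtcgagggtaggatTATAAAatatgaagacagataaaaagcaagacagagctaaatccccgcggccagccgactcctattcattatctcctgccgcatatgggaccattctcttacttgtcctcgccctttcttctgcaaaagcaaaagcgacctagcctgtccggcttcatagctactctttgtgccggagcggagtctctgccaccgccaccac
Fzd5: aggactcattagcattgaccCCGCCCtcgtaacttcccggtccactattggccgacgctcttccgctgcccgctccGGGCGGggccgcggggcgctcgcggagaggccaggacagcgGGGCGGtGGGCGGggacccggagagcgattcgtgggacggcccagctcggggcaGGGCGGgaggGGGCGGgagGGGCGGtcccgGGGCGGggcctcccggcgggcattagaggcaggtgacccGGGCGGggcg
The Fzd1 window holds 1 TATA box match and 0 GC box matches and is 51.2% G and C, whereas the Fzd5 window holds 0 TATA box matches and 9 GC box matches and is 76.4% G and C. Over the 32817 windows of the same length, 12.4% hold a TATA box match and 32.7% a GC box match, and the median share of G and C is 52.4%. Neither window holds a TCF/LEF match (CTTTGAA or CTTTGAT or CTTTGTA or CTTTGTT, on either strand, found in 14.8% of all windows) or a hypoxia response match (ACGTG or GCGTG, found in 38.6%). For 38 of the 56 genes there were 48 windows, some genes having several. Of these windows, 70.8% held a GC box match, 18.75% a TATA box match, 12.5% a TCF/LEF match and 54.2% a hypoxia response match. The window left out for Fzd9, called lower as Fzd5 was, holds 1 GC box match, 0 TATA box matches and 7 hypoxia response matches.

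Fzd1, on chromosome 5 from 4753839 to 4758035, was the 1 Frizzled gene called higher. It had 189, 185 and 184 CPM in the tumour libraries, against 110, 115 and 156 CPM in the sham libraries. The groups did not overlap, and sham library 3 lay closer to the tumour libraries than the other 2 did. In log2 terms the fold change was 0.55 (SE 0.14 and edgeR adjusted p = 0.0361), and 0.72 without sham library 3. The call was lost without tumour library 1, 2 or 3 (adjusted p = 0.127, 0.120 and 0.118) and without sham library 1 or 2 (adjusted p = 0.103 and 0.117). Fzd2, on chromosome 11 from 102604396 to 102608058, moved the other way with little spread. It had 110, 111 and 114 CPM in the tumour libraries, against 142, 153 and 152 CPM in the sham libraries. Its log2 fold change was -0.42 (SE 0.06 and edgeR adjusted p = 0.00651), and sham library 3 fell among the other sham values. It was -0.40 without sham library 3, and the adjusted p was 0.0506 without tumour library 1 and 0.0507 without tumour library 2.

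Fzd5, on chromosome 1 from 64730558 to 64737751, had 28.7, 29.1 and 25.9 CPM in the tumour libraries, against 38.7, 34.3 and 52.6 CPM in the sham libraries. This gave a log2 fold change of -0.59 (SE 0.16 and edgeR adjusted p = 0.0478), with every tumour value below every sham value, and -0.39 without sham library 3. This call was lost without tumour library 1, 2 or 3 (adjusted p = 0.142, 0.135 and 0.167) and without sham library 1 (adjusted p = 0.0872). Fzd9, on chromosome 5 from 135248938 to 135251230, had 5.59, 4.81 and 3.36 CPM in the tumour libraries, against 9.24, 8.52 and 6.72 CPM in the sham libraries. Here too the groups did not overlap, with a log2 fold change of -0.83 (SE 0.23 and edgeR adjusted p = 0.0478), and -0.96 without sham library 3. Leaving out tumour library 1, 2 or 3 gave adjusted p = 0.0825, 0.140 and 0.129, and leaving out sham library 1 or 2 gave 0.132 and 0.124.

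The other Frizzled genes did not pass the test. Fzd7, the first of the family by TPM, had 194, 204 and 192 CPM in the tumour libraries, against 258 and 257 CPM in sham libraries 1 and 2 and 123 CPM in sham library 3. The tumour libraries lay between the 2 kinds of sham library, and the log2 fold change was -0.11 (edgeR adjusted p = 0.803), and -0.39 without sham library 3 (adjusted p = 1.67e-12). Fzd3 had 67.7, 77.6 and 78.1 CPM in the tumour libraries, against 109, 107 and 80.2 CPM in the sham libraries. Fzd6, which is tied to planar cell polarity, had 24.2, 24.2 and 24.5 CPM in the tumour libraries, against 26.0, 27.1 and 31.2 CPM in the sham libraries. Fzd8 had 27.2, 25.4 and 24.5 CPM in the tumour libraries, against 29.0, 30.4 and 33.5 CPM in the sham libraries. In these 3 genes each tumour value was below each sham value, with log2 fold changes of -0.41, -0.21 and -0.27 (adjusted p = 0.0733, 0.141 and 0.0690). Without sham library 3 they were -0.54 for Fzd3 (adjusted p = 1.02e-10), -0.13 for Fzd6 (adjusted p = 0.157) and -0.21 for Fzd8 (adjusted p = 0.0199). Fzd4, the receptor for Norrin as well as for WNT proteins, had 48.8, 45.7 and 46.8 CPM in the tumour libraries, against 37.8, 43.3 and 24.6 CPM in the sham libraries. Its values were above those of all sham libraries, with a log2 fold change of 0.42 (adjusted p = 0.177), and of 0.21 without sham library 3 (adjusted p = 0.00522). Fzd10 was under 2 CPM in every library.

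**Figure D3:**
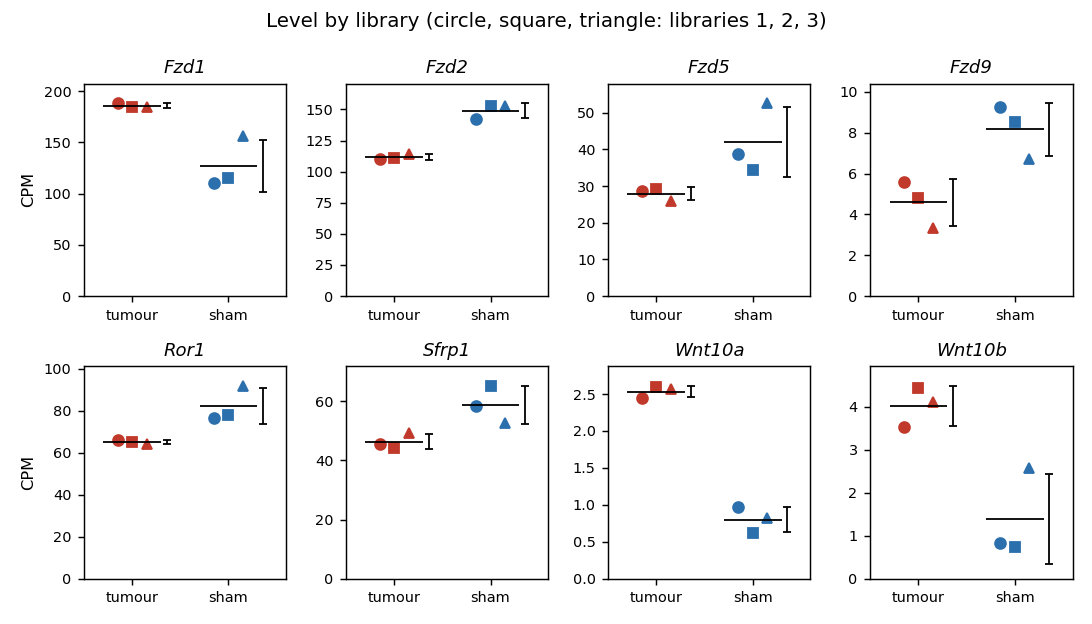
CPM by library for the 7 called WNT genes and for Wnt10b, tumour left and sham right, with a line for the mean, a bar for the SD (n = 3 each) and a symbol for each library number. Tumour and sham libraries do not overlap in any of the 8 panels, and Wnt10b, with 1 higher sham library, did not pass the test.

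Of the LRP co-receptors, Lrp5 had 109, 111 and 118 CPM in the tumour libraries, against 92.0, 86.3 and 102 CPM in the sham libraries. The groups did not overlap, and its log2 fold change of 0.28 (SE 0.08) lay just outside the threshold (edgeR adjusted p = 0.0512), and was 0.34 without sham library 3 (adjusted p = 5.73e-08). Lrp6 had 149, 143 and 143 CPM in the tumour libraries, against 151, 150 and 136 CPM in the sham libraries, with a log2 fold change of -0.01 (SE 0.07). Among the ROR receptor kinases, which bind WNT5A, Ror1 on chromosome 4 from 100095791 to 100444765 fell. It had 66.1, 65.2 and 64.4 CPM in the tumour libraries, against 76.4, 77.9 and 92.0 CPM in the sham libraries. Tumour over sham, the log2 fold change was -0.33 (SE 0.08 and edgeR adjusted p = 0.0366), and -0.25 without sham library 3. Its call was lost without tumour library 1, 2 or 3 (adjusted p = 0.123, 0.131 and 0.137) and without sham library 1 or 2 (adjusted p = 0.0527 and 0.0701). Ror2 had the opposite sign, with 12.9, 15.6 and 13.5 CPM in the tumour libraries, against 4.93, 5.74 and 11.9 CPM in the sham libraries. No tumour value overlapped a sham value, but the log2 fold change of 0.90 (SE 0.33) did not pass the test with all libraries (adjusted p = 0.104) and was 1.39 without sham library 3 (adjusted p = 7.13e-11).

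Among the antagonists, Sfrp1, which binds WNT proteins outside the cell, was the only gene called. That is 1 of 3 tested SFRP genes (33.3%), and 0 of 2 tested Dickkopf genes, against 20.9% of all tested genes. Notum and Wif1 gave 0 calls. Sfrp1 lies on chromosome 8 from 23411502 to 23449632. It had 45.5, 44.3 and 49.2 CPM in the tumour libraries, against 58.4, 65.2 and 52.5 CPM in the sham libraries. All tumour values were below the sham values, of which sham library 3 was the lowest. On the log2 scale the difference was -0.34 (SE 0.09 and edgeR adjusted p = 0.0487), and -0.42 without sham library 3. The call was lost without tumour library 1, 2 or 3 (adjusted p = 0.163, 0.173 and 0.108) and without sham library 1 or 2 (adjusted p = 0.110 and 0.120). Sfrp4 had 10.7, 8.51 and 8.37 CPM in the tumour libraries, against 37.0 and 40.5 CPM in sham libraries 1 and 2 and 8.03 CPM in sham library 3. Its log2 fold change was -1.63 (SE 0.56, adjusted p = 0.0841) with all libraries and -2.08 (adjusted p = 5.92e-20) without sham library 3, whose value lay below those of all tumour libraries. Sfrp5 was under 5 CPM in every library and uncalled (log2 fold change -0.09, and -0.59 without sham library 3, adjusted p = 0.0180), and Sfrp2 had at most 8 reads in any library. The summed SFRP level was 27.8, 25.2 and 26.1 TPM in the tumour libraries, against 55.3, 63.4 and 26.5 TPM in the sham libraries, so that sham library 3 stood with the tumour libraries.

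Dkk3, a Dickkopf-family gene whose protein does not block LRP co-receptors as the other members do, made up 99.7% of the summed Dickkopf TPM. It had 367, 361 and 368 CPM in the tumour libraries, against 281 and 274 CPM in sham libraries 1 and 2 and 615 CPM in sham library 3. Its log2 fold change was -0.09 (edgeR adjusted p = 0.859) and turned to 0.39 (adjusted p = 9.53e-14) without sham library 3. Dkk2 was tested at under 5 CPM and not called (log2 fold change -0.92, and -0.28 without sham library 3), and the LRP blockers Dkk1 and Dkk4 had 0 reads in every library. Notum, a secreted enzyme that removes the lipid from WNT proteins, had 47.5, 47.2 and 47.0 CPM in the tumour libraries, against 28.4, 30.1 and 41.9 CPM in the sham libraries. The tumour values were all higher, with a log2 fold change of 0.50 (SE 0.15) that did not pass the test (adjusted p = 0.0586) and was 0.69 without sham library 3 (adjusted p = 2.68e-11). Wif1, which binds WNT proteins directly, had 3.81, 4.23 and 3.40 CPM in the tumour libraries, against 2.64, 2.62 and 13.9 CPM in the sham libraries. Its log2 fold change of -0.74 (adjusted p = 0.477) turned to 0.53 without sham library 3 (adjusted p = 0.0411). A retained-intron transcript, which codes for no protein in the annotation, held 0%, 71.8% and 66.6% of the gene's TPM in the tumour libraries, against 54.5%, 76.9% and 83.5% in the sham libraries, so these shares overlapped.

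Ctnnb1, the first of the 56 genes by TPM, had 812, 807 and 797 CPM in the tumour libraries, against 722, 732 and 1080 CPM in the sham libraries. The tumour libraries lay between the 2 kinds of sham library, with a log2 fold change of -0.07 (edgeR adjusted p = 0.815) that turned to 0.15 without sham library 3 (adjusted p = 1.27e-05). A retained-intron transcript held 30.3% to 36.4% of the gene's TPM in the tumour libraries, against 33.9% to 39.6% in the sham libraries. The gene shares 759 exon bases with Ulk4 on the opposite strand, so a part of its reads is uncertain. Of the TCF factors, Tcf7l2 had 32.9, 32.1 and 33.0 CPM in the tumour libraries, against 32.9, 37.2 and 38.1 CPM in the sham libraries. Tcf7l1, which often acts as a repressor, had 22.0, 18.7 and 20.1 CPM in the tumour libraries, against 19.8, 20.7 and 23.2 CPM in the sham libraries. Neither passed the test (adjusted p = 0.232 and 0.675). Tcf7 had 4.51, 4.15 and 5.61 CPM in the tumour libraries, against 6.20, 6.36 and 7.99 CPM in the sham libraries, with every tumour value lower (a log2 change of -0.52 with SE 0.19 and adjusted p = 0.0920). It was -0.40 without sham library 3 (adjusted p = 0.0459). Its transcript Tcf7-201 held 76.8%, 75.4% and 76.7% of the gene's TPM in the tumour libraries, against 58.7%, 62.7% and 65.5% in the sham libraries, a difference that was seen on looking through the transcripts and was not tested. Lef1 was not tested, with 2, 7 and 13 reads in the tumour libraries and 1, 3 and 2 reads in the sham libraries.

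The feedback genes Axin2, Nkd1, Rnf43 and Znrf3, whose transcription β-catenin and TCF are known to raise in many tissues, gave 0 calls. The share called over all tested genes was 20.9%. Axin2, a scaffold of the complex that destroys β-catenin, had 31.3, 28.0 and 33.7 CPM in the tumour libraries, against 52.9, 55.0 and 27.7 CPM in the sham libraries. Nkd1, an inhibitor that binds Dishevelled, had 4.72, 3.58 and 3.36 CPM in the tumour libraries, against 7.26, 8.69 and 3.40 CPM in the sham libraries. Both were lower than sham libraries 1 and 2 and close to sham library 3. The log2 fold changes were -0.55 for Axin2 (SE 0.25 and edgeR adjusted p = 0.177) and -0.73 for Nkd1 (SE 0.36, adjusted p = 0.193). Without sham library 3 they were -0.80 (adjusted p = 1.82e-12) and -1.04 (adjusted p = 3.6e-06). Znrf3, a ligase that removes Frizzled from the surface, had 10.1, 11.9 and 12.05 CPM in the tumour libraries, against 11.9, 15.7 and 13.8 CPM in the sham libraries (a log2 change of -0.29, adjusted p = 0.197, and 0.0435 without sham library 3). Its relative Rnf43 had the opposite sign at a low level, with 1.61, 1.52 and 2.92 CPM in the tumour libraries, against 1.23, 0.707 and 0.590 CPM in the sham libraries (a log2 change of 1.26 with SE 0.42 and adjusted p = 0.0825), and its log2 fold change was 1.06 without sham library 3 (adjusted p = 0.0191).

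Sham library 3 stood apart for many of these genes. Its CPM was at least 2-fold away from the mean of sham libraries 1 and 2 (with 0.5 CPM added) in 17 of the 46 tested genes (37.0%), 7 above and 10 below, against 9.76% of all tested genes. Among genes of at least 5 CPM on average it was 11 of 32 WNT genes (34.4%), against 7.28% of 11319 genes. It was higher for Wnt2, Wnt10b, Wnt7b, Ror2, Dkk2, Dkk3 and Wif1 and lower for Wnt2b, Wnt6, Wnt9a, Wnt11, Rspo3, Fzd7, Fzd10, Sfrp4, Sfrp5 and Nkd1. For 20 of the 46 genes (43.5%) the tumour mean lay on one side of sham library 3 and on the other side of the mean of sham libraries 1 and 2, against 35.3% of all tested genes. Summed markers moved with this split. The astrocyte sum was lower and the fibroblast and meningeal sum higher in sham library 3 than in the other 5 libraries. Single markers did not all follow. Against sham libraries 1 and 2, sham library 3 was higher for Col1a1, Col1a2, Col3a1 and Twist2. It was lower for Dcn, Lum, Pdgfra, Foxc1, Tbx18 and Slc6a13. The astrocyte marker Aldh1l1 had 281 CPM in sham library 3, against 228 and 231 CPM in sham libraries 1 and 2, and the other astrocyte markers were lower. The part of these cell types in the split was not tested. Without sham library 3, the remaining groups each hold libraries that are very close to each other, and 57.7% of 14618 tested genes were called, including 36 of the 46 WNT genes (78.3%), 16 higher and 20 lower.

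**Figure D4:**
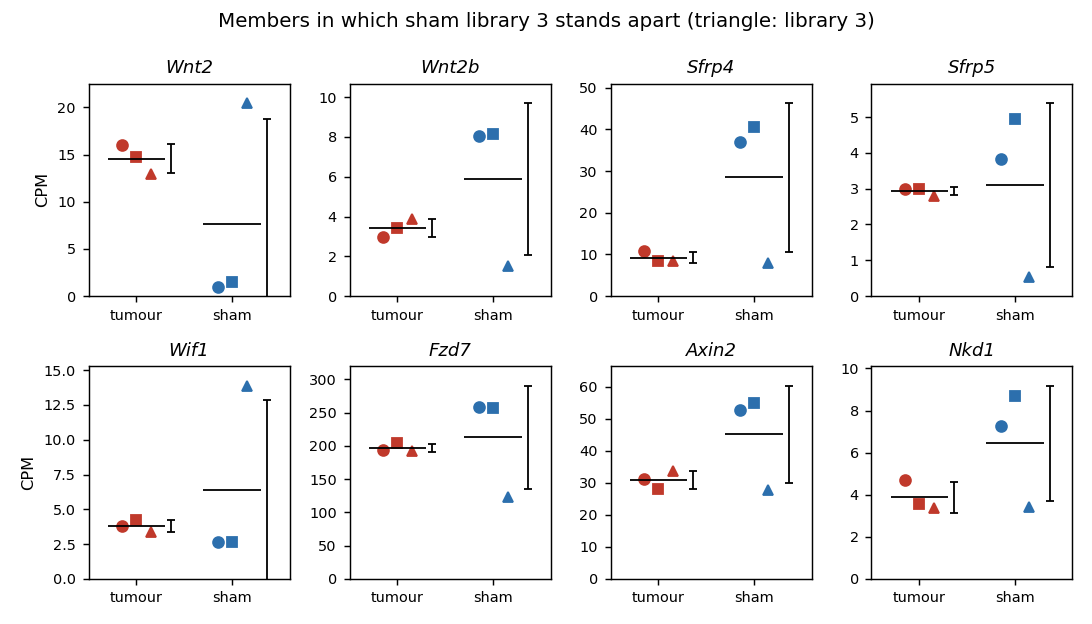
CPM by library for 8 WNT genes whose sham libraries disagree, tumour left and sham right, with a line for the mean and a bar for the SD (n = 3 each, stopped at 0). Sham library 3 (triangle) is the highest value for Wnt2 and Wif1 and lies below sham libraries 1 and 2 for the other genes shown.

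Of further genes of the pathway, 92 outside the set were tested, and 8 were called higher and 9 lower, which is 18.5% against 20.9% of all tested genes. Among genes for WNT secretion, Wls, the carrier that brings WNT proteins to the surface, had 369, 356 and 361 CPM in the tumour libraries, against 454, 456 and 480 CPM in the sham libraries (a log2 change of -0.36 with SE 0.08 and edgeR adjusted p = 0.0226). Porcn, the second gene of that list, was not called. Of 16 genes of the destruction complex and Dishevelled, 2 rose and 0 fell (12.5%), with a median of 0.06. Csnk1e, a kinase that acts on Dishevelled, had 79.8, 72.9 and 76.6 CPM in the tumour libraries, against 50.6, 53.0 and 46.8 CPM in the sham libraries (a log2 change of 0.61 with SE 0.07 and adjusted p = 0.0034), and Axin1 rose by 0.32 (adjusted p = 0.0326). Of 17 nuclear co-factors, TCF/LEF genes included, 0 rose and 1 fell (5.88%), with a median of -0.07: the co-repressor Tle2 had 14.9, 13.2 and 14.1 CPM in the tumour libraries, against 24.98, 22.6 and 39.2 CPM in the sham libraries (a log2 change of -1.04 with SE 0.22 and adjusted p = 0.0196). Csnk1e was called with any single library left out. The call was lost for Wls (adjusted p from 0.0630 to 0.120) and Axin1 (0.0789 to 0.132) without any 1 library other than sham library 3, and for Tle2 without any 1 tumour library (0.0800 to 0.0909).

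Of 21 tested extracellular ligands, co-receptors and modulators outside the set, 4 rose and 1 fell, with a median of 0.06. The share called was 23.8%, near the 20.9% of all tested genes. Reck, which with GPR124 makes brain endothelium responsive to WNT7, had 93.2, 88.5 and 86.5 CPM in the tumour libraries, against 62.2, 60.3 and 59.2 CPM in the sham libraries (a log2 change of 0.56 with SE 0.06 and edgeR adjusted p = 0.00238). Kremen1, a receptor for Dickkopf proteins, had 268, 266 and 262 CPM in the tumour libraries, against 115, 120 and 204 CPM in the sham libraries (a log2 change of 0.86 with SE 0.22 and adjusted p = 0.0397). Sostdc1, a secreted antagonist of BMP and WNT proteins, rose by 0.90 (adjusted p = 0.0317), and Serpinf1 rose by 0.36 (adjusted p = 0.0140). Lgr4, a receptor for R-spondins, had 35.7, 35.5 and 37.7 CPM in the tumour libraries, against 64.0, 61.2 and 42.7 CPM in the sham libraries (a log2 change of -0.62 with SE 0.15 and adjusted p = 0.0336). The gene for that receptor was thus called lower. The 3 tested R-spondin genes were not called, but their log2 fold changes were negative too, at -1.15 for Rspo3 (edgeR adjusted p = 0.0522). Reck was called with any single library left out. Kremen1 (adjusted p from 0.106 to 0.129) and Lgr4 (0.0919 to 0.126) lost the call without any 1 library other than sham library 3. Sostdc1 (0.0707 to 0.125) and Serpinf1 (0.0587 to 0.0801) lost it without any 1 tumour library or sham library 1.

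Of 26 genes of planar polarity and the non-canonical branches, 2 rose and 4 fell, with a median of -0.06. The share called was 23.1%, also near that of all tested genes. The polarity genes Vangl1 and Vangl2 fell together: Vangl1 had 38.8, 42.6 and 42.7 CPM in the tumour libraries, against 55.5, 63.7 and 54.3 CPM in the sham libraries, and Vangl2 had 12.9, 14.9 and 12.4 CPM in the tumour libraries, against 18.2, 23.2 and 20.6 CPM in the sham libraries. Their log2 fold changes were -0.48 (SE 0.09 and edgeR adjusted p = 0.0122) and -0.63 (SE 0.13, adjusted p = 0.0178), and both lost the call without tumour library 1 or 3 (adjusted p = 0.0653 and 0.0571 for Vangl1, 0.0863 and 0.0856 for Vangl2). Vangl1 also lost it without tumour library 2 (0.0570) and Vangl2 without sham library 2 (0.0599). The polarity gene Fuz also fell (log2 fold change -0.47). Camk2d, a calcium-dependent kinase, had 398, 401 and 388 CPM in the tumour libraries, against 210, 206 and 286 CPM in the sham libraries (a log2 change of 0.76 with SE 0.14 and adjusted p = 0.0140). Ryk, a WNT receptor of the receptor kinase family, had 119, 110 and 116 CPM in the tumour libraries, against 81.6, 77.2 and 98.5 CPM in the sham libraries (a log2 change of 0.42, adjusted p = 0.0317). Of 24 tested genes known as β-catenin targets, feedback genes of the set included, 0 rose and 2 fell (8.33%, against 20.9% of all tested genes), with a median of -0.10. Without sham library 3, 7 rose and 11 fell (75%, against 57.7% of all genes). The 2 that fell with all libraries were Ccn4, with a log2 fold change of -0.71 (adjusted p = 0.0385), and the homeobox gene Msx1, with -0.27 (adjusted p = 0.0396). Ccnd1, Fosl1 and Myc, well-known targets not called with all libraries, differed between the sham libraries. They were chosen after their values were seen and are among the 7 that rose without sham library 3, whereas 11 fell. Ccnd1, which drives entry into the cell cycle, had 860, 863 and 867 CPM in the tumour libraries, against 467, 467 and 1585 CPM in the sham libraries. The log2 change of Ccnd1 was 0.04 (adjusted p = 0.965), 0.88 without sham library 3 (adjusted p = 2.4e-25), and -0.26 without sham library 1 or 2. Fosl1, an AP-1 subunit, had 44.7, 44.8 and 48.8 CPM in the tumour libraries, against 4.002, 4.20 and 28.7 CPM in the sham libraries (a log2 change of 1.91 with adjusted p = 0.118, and 3.49 without sham library 3 with adjusted p = 5.53e-26). The growth regulator Myc had a log2 fold change of 0.74 (adjusted p = 0.0718), and 1.08 without sham library 3 (adjusted p = 4.15e-14). Camk2d (adjusted p from 0.0528 to 0.0687), Ryk (0.0933 to 0.124), Fuz (0.0679 to 0.107), Ccn4 (0.0679 to 0.144) and Msx1 (0.0700 to 0.152) lost the call without any 1 library other than sham library 3.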

How the data were processed

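Bulk RNA-seq of 3 tumour-associated and 3 sham astrocyte libraries was analysed, with groups taken from the sample titles. Per the submitters' processing notes, the authors used Salmon 0.8.2, the mm10 genome and DESeq2 1.28.1. Per the file headers, the deposited values are estimated counts and TPM per transcript, with transcript lengths in bases. Of 113116 transcripts, 112841 matched GENCODE M21, which hold 99.947% to 99.958% of the estimated counts. The estimated counts were added up for each gene and then rounded, and TPM were added up likewise. Deposited TPM served for levels between genes, and CPM on TMM library sizes for levels of 1 gene. Salmon shares out reads that fit several transcripts, so near-identical genes and transcripts can trade reads.

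Genes passing filterByExpr (minimum count 10, minimum total 15) were tested with edgeR 4.0.16 (robust quasi-likelihood test, TMM scaling, tumour over sham, Benjamini-Hochberg adjustment over 14359 genes, threshold 0.05) in R 4.3.3; DESeq2 1.42.0 and limma 3.58.1 served as alternatives. The standard error (SE) is the absolute log2 change over the root of F. The fitting scripts were tested on simulated data. The members, the further gene lists and the marker lists were chosen with earlier results of these data known. Values in every library are given for members that were called or that averaged at least 5 CPM, and for selected others; up to 5 called genes per further list are named. Selected others, Myc, Ccnd1 and Fosl1 included, were chosen after their values were seen. The symbol Tle5 was not found in the annotation used.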

Additional observations from a re-analysis of the deposited data

How the results depend on the processing

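Under 16 alternatives, values of the 46 tested WNT genes kept direction and side of the threshold in 623 cases, lost the call in 45, gained one in 42 and changed sign in 24. Main counts were 2 WNT genes higher and 5 lower. Higher and lower counts were 7 and 9 with DESeq2, 4 and 3 with limma-voom, and 2 lower with transcript length offsets; upper-quartile scaling gave 4 higher. Leaving out 1 library gave 0 to 16 higher and 0 to 20 lower, both highest without sham library 3. Summing the close libraries (tumour libraries 1 to 3, sham libraries 1 and 2) leaves 1 tumour sample, assumed to vary like the sham samples, and gave 0 of either with edgeR (0 WNT genes at an unadjusted p under 0.05). For the pathway genes outside the set (alternatives chosen after seeing the data; main counts 8 higher and 9 lower), DESeq2 gave 14 lower, length offsets 5 lower, the summed libraries 0 of either, and leaving out 1 library 2 to 30 higher and 0 to 32 lower. Csnk1e and Reck were called in 15 of the 16 alternatives, all but the summed libraries. Over all genes (main counts 1506 higher and 1492 lower), length offsets gave 969 lower, the summed libraries 0 and 0 (400 higher and 173 lower at an unadjusted p under 0.05), and leaving out 1 library 536 to 4250 higher and 355 to 4179 lower.

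Same-numbered libraries did not deviate together (correlations of deviations 0.00785, -0.0194 and -0.0008). This check cannot decide whether the numbers pair the samples. The tumour libraries differed little from each other, and most of the spread among the sham libraries came from the library that stood apart. A replicate block gave 1 WNT gene higher and 2 lower, 4 pathway genes outside the set higher, and 829 higher and 607 lower over all genes.

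Several log2 fold changes changed sign. Over the fits that left out 1 library, they ran from -0.18 to 0.15 for Ctnnb1, from -0.30 to 0.39 for Dkk3, from -1.12 to 0.53 for Wif1 and from -0.32 to 0.15 for Wnt5a, each highest without sham library 3. They ran from -0.59 to 0.42 for Sfrp5, from -0.39 to 0.043 for Fzd7, from -0.058 to 0.014 for Lrp6 and from -0.040 to 0.69 for Wnt11, each lowest without sham library 3, and from -0.10 to 0.65 for Wnt7b, highest without it. Dkk3 was at 0.0078 with limma-voom and 0.017 with the replicate block, Sfrp5 at 0.38 and 0.25, and Fzd6 at 0.12 with length offsets. With the summed libraries, Fzd7 was at 0.042, Lrp6 at 0.012, Sfrp5 at 0.22 and Wnt7b at -0.075. Ccnd1 was at -0.25 with the summed libraries and between -0.26 and 0.88 without 1 library. Causes were not tested. Fzd5 was not called with limma-voom (adjusted p = 0.0569) or length offsets (0.0516), Sfrp1 not with limma-voom (0.0505), upper-quartile scaling (0.0501) or length offsets (0.0678), and Fzd9 not with length offsets (0.0702). The 14 tested WNT genes under 5 CPM rest on few reads, and the 10 genes left out by the filter had at most 0.513 CPM in any library.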
